A study of Mus musculus with 9 samples.

Results

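The 10 genes described here belong to the sterol-sensing and cholesterol-export system of macrophages. They are the liver X receptor genes Nr1h3 (LXRα) and Nr1h2 (LXRβ), the export genes Abca1, Abcg1 and Arl4c, the lipoprotein genes Apoe, Apoc2 and Pltp, and the lysosomal cholesterol transporter genes Npc1 and Npc2. They were chosen by name, as rows of the deposited FPKM table (fragments per kilobase of a transcript, corrected for library size) whose gene name matched, and all 10 were found among its 46078 genes. All 10 passed the filter on low values, which kept the 11952 genes that reached 1 deposited FPKM in 3 or more libraries. Nr1h3, Abca1, Apoc2 and Pltp reached 1 FPKM throughout 2 of the 3 groups, and the other 6 genes throughout all 3.

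The study compared 3 macrophage cultures from C57BL/6J mice, an inbred laboratory strain, with 3 libraries each. FLM_G started from livers of fetuses at gestational day 15 to 19 and grew in 10% fetal bovine serum with recombinant mouse GM-CSF, a macrophage and granulocyte growth factor, at 30 ng/ml. FLM_M started from the same tissue and grew in 20% fetal bovine serum with 30% L-cell supernatant, which supplies M-CSF, the growth factor that most tissue macrophages depend on. BMM came from bone marrow, and the labels do not describe their medium. Medium may thus also have differed in both comparisons with BMM, and its part cannot be told apart from that of tissue. Every culture had been kept for at least 8 weeks and was replated 1 day before RNA was taken. Growth factor, serum content and the presence of L-cell supernatant therefore all differed between FLM_G and FLM_M, and their parts cannot be told apart. Cells were plated in 3 wells per culture, with no statement that the wells stood for separate animals or cultures, and p-values therefore speak to variation among wells, possibly technical, and not among animals.

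Liver X receptors are nuclear receptors that bind oxysterols and sterol intermediates, pair with a retinoid X receptor and raise transcription of genes that move cholesterol out of the cell. In macrophages this is known as the first part of reverse cholesterol transport: lysosomal transporters release cholesterol taken up with lipoproteins and dying cells, membrane transporters pass it to acceptor particles, and secreted apolipoproteins and lipid transfer proteins shape those particles. Macrophages of the lung, which need GM-CSF to develop, are known for their handling of surfactant lipids and for the lipid overload that follows loss of that growth factor.

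Levels are given as scaled FPKM, meaning deposited FPKM divided by a factor per library, and log2 changes are on log2(scaled FPKM + 1), which understates changes of genes at low levels. Each change comes with the standard error (SE) of a limma fit over all 9 libraries and a p-value adjusted over the 11952 genes, with 0.05 as threshold. The smallest steps of the FPKM values put the libraries at about 28500000 to 35660000 reads. Libraries of the same culture correlated across genes at Pearson 0.986 to 0.992, and those of different cultures at 0.785 to 0.936. All 7 macrophage markers (Csf1r, Adgre1, Itgam, Cd68, Lyz2, Spi1 and Mertk) were present, with summed levels of 26840 to 27090 in FLM_G, 5719 to 5911 in FLM_M and 7777 to 8190 in BMM. Lyz2 made up most of these sums, at means of 25600, 3652 and 6408 in that order, whereas Csf1r (119, 433 and 368), Adgre1 (72.0, 140 and 201) and Itgam (26.5, 96.3 and 79.6) were lower in FLM_G than in both other cultures. Spi1 (170, 93.4 and 86.8) and Mertk (64.0, 10.5 and 9.11) were higher in FLM_G than in both, and Cd68 (919, 1370 and 846) was highest in FLM_M. Since liver parenchyma is a rich source of apolipoproteins, its markers were also read: Alb, Apoa1, Ttr and Serpina1a were at 0 in every library, while the sum over the 7 hepatocyte markers was 120 to 135 in FLM_G, 29.3 to 37.6 in FLM_M and 6.87 to 7.84 in BMM. Trf carried this gradient, at means of 127 in FLM_G, 31.7 in FLM_M and 5.01 in BMM, whereas Afp (0.910, 2.19 and 1.79) and Apoa2 (listed at 0, 0.412 and 0.570) were lowest in FLM_G. Of the granulocyte and mast cell markers, S100a8 alone reached 1 FPKM (5-marker sums of 49.7 to 56.6 in FLM_G, 9.51 to 12.3 in FLM_M and 1.84 to 2.15 in BMM), with Ly6g, Elane and Cpa3 at 0. The part of these markers in the results was not tested. No fibroblast, erythroid, dendritic cell, lymphocyte or adipocyte marker reached 1 FPKM. Xist stood at 41.3 to 54.7 in FLM_G and 67.2 to 74.3 in FLM_M, against at most 0.00444 in BMM, and the Y-linked Ddx3y at no more than 0.0165 in FLM_G and at 0 in FLM_M, against 8.47 to 10.4 in BMM, so that tissue of origin and sex moved together in both comparisons with BMM and cannot be told apart. A lower level in RNA from a whole culture can come from fewer cells that express a gene or from less RNA per cell, and these cannot be told apart either.

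The LXR genes separated the cultures through Nr1h3, which had the highest level in FLM_G, an intermediate one in BMM and almost none in FLM_M, while Nr1h2 differed little. Nr1h3 (chromosome 2, 91184061 to 91202834 on GRCm38, minus strand) codes for LXRα, the receptor form enriched in macrophages, liver, gut and fat. It had 21.5, 25.3 and 28.1 scaled FPKM in FLM_G, 0.0840, 0.124 and 0.163 in FLM_M, and 4.20, 4.36 and 4.15 in BMM. The 3 cultures did not overlap, and the FLM_M level stood for about 7 to 13 reads per library against 1000 to 1397 in FLM_G. Nr1h3 rose in FLM_G against FLM_M, with a log2 change of 4.52 (limma SE 0.09, adjusted p = 3.93e-10). It also rose in FLM_G against BMM, by 2.30 (limma SE 0.09, adjusted p = 3.84e-08). In FLM_M it fell against BMM, with a log2 change of -2.22 (limma SE 0.09, adjusted p = 1.41e-07). Because the FLM_M level was so low, the added constant set the size of these changes: with 0.1 in place of 1 the change was 6.82 in FLM_G against FLM_M and -4.29 in FLM_M against BMM. The annotated gene Gm23390 overlaps Nr1h3 on the opposite strand.

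Nr1h2 (chromosome 7, 44549616 to 44553951, minus strand) codes for LXRβ, the form found in most cell types. It had 15.8, 17.6 and 18.3 scaled FPKM in FLM_G, 15.1, 15.4 and 14.8 in FLM_M, and 17.7, 14.8 and 14.5 in BMM. BMM replicate 1 lay among the FLM_G values and the other BMM libraries among or just below the FLM_M values. No comparison passed: the log2 change was 0.18 (limma SE 0.08, adjusted p = 0.0850) in FLM_G against FLM_M, 0.13 (limma adjusted p = 0.191) in FLM_G against BMM and -0.05 (limma adjusted p = 0.689) in FLM_M against BMM. Its direction in FLM_G depended on the scaling, since without scaling it passed as lower, at -0.28 against FLM_M and -0.27 against BMM, whereas without BMM replicate 1 it passed as higher, at 0.17 against FLM_M and 0.21 against BMM, as it did without FLM_G replicate 1 against FLM_M, at 0.25.

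FPKM is a level per length of transcript, so the receptors can be compared within a library, and such a ratio does not depend on the scaling. Nr1h3 stood at 1.36, 1.44 and 1.54 times Nr1h2 in the FLM_G libraries, at 0.00555, 0.00806 and 0.0110 times in the FLM_M libraries, and at 0.237, 0.295 and 0.286 times in the BMM libraries. LXRα transcripts thus exceeded LXRβ transcripts only in the FLM_G libraries. The log2 ratio averaged 0.53 ± 0.09 in FLM_G, -6.98 ± 0.49 in FLM_M and -1.88 ± 0.17 in BMM (SD, n = 3 each). Each pair of cultures was without overlap, and the 2-sided exact permutation test gave p = 0.1 for each pair, the smallest value that 3 against 3 libraries allow.

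**Figure D1:**
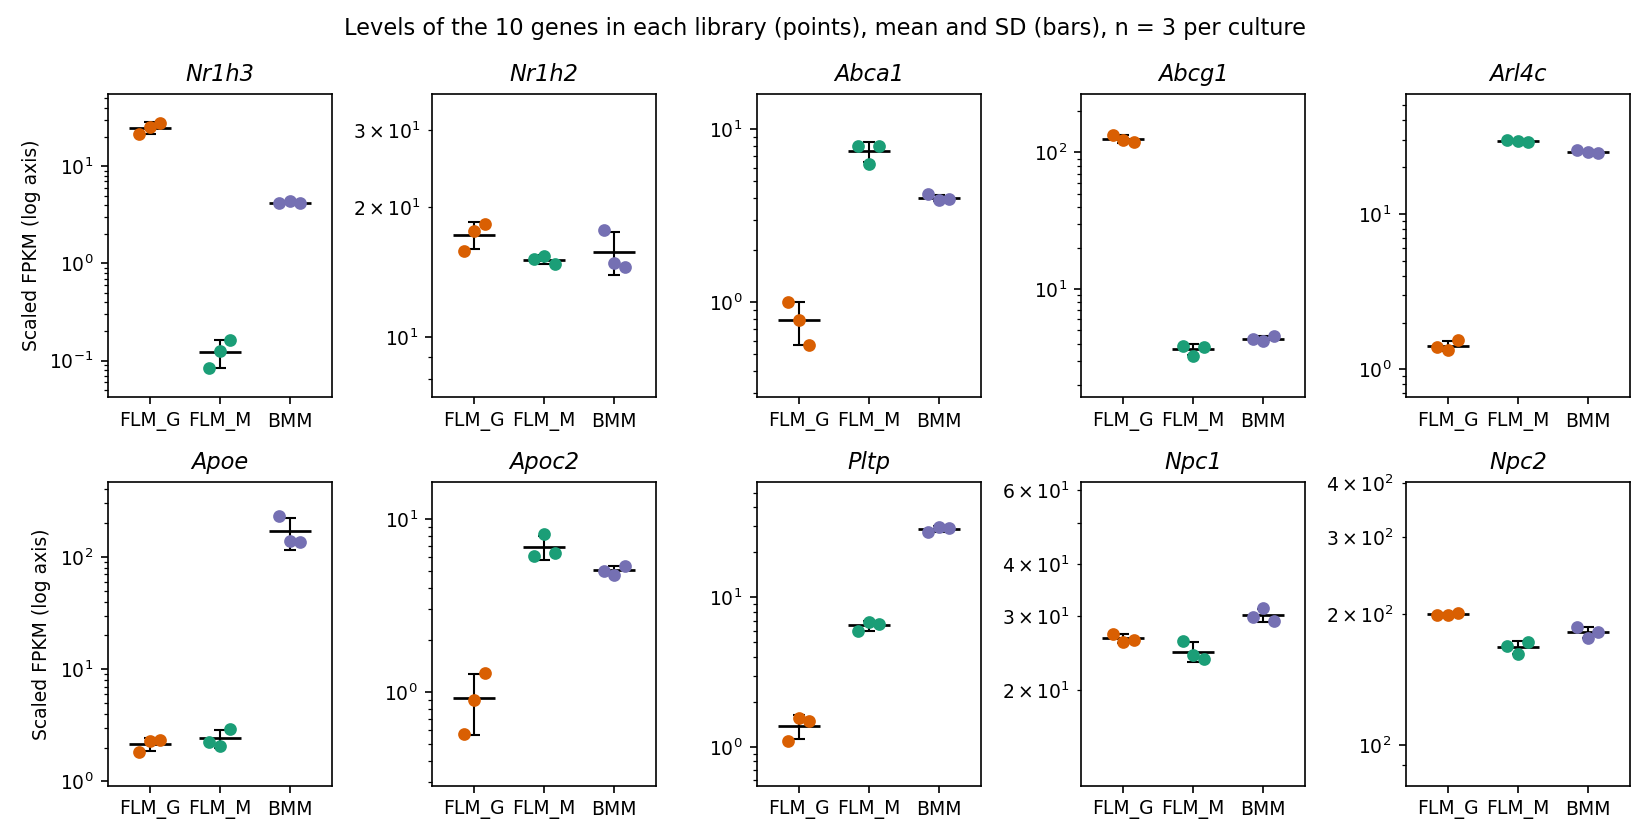
Scaled FPKM (log axis) of each of the 10 genes in the 3 libraries of FLM_G, FLM_M and BMM, with points for libraries and bars for the mean and SD. Nr1h3 and Abcg1 stood highest in FLM_G, Abca1 and Arl4c lowest there, Apoe and Pltp highest in BMM, and Nr1h2, Npc1 and Npc2 lay close together in all 3 cultures.

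The export genes went in opposite directions in FLM_G, where Abcg1 was far higher and Abca1 and Arl4c far lower than in either other culture. Abca1, Arl4c and Abcg1 are textbook LXR targets, which is why their promoters are shown where the sequence table held them. Abca1 and Arl4c moved the same way in all 3 comparisons, and the windows from 250 bases before to 50 after their annotated starts (RefSeq, GRCm38.p6, written 5′ to 3′ on the gene's strand) are printed here with capitals for every match to an LXR-type direct repeat. The repeat searched was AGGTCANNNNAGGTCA on both strands with at most 3 mismatches in its 12 fixed letters. The Abca1 window is chr4:53159846-53160145 (minus strand) and the Arl4c window chr1:88702142-88702441 (minus strand).
Abca1: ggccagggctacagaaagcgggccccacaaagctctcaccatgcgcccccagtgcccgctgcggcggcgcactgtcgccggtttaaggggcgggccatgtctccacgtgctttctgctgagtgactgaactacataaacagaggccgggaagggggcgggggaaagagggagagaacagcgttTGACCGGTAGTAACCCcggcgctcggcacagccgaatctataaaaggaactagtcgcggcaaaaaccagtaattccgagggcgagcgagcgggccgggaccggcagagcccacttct
Arl4c: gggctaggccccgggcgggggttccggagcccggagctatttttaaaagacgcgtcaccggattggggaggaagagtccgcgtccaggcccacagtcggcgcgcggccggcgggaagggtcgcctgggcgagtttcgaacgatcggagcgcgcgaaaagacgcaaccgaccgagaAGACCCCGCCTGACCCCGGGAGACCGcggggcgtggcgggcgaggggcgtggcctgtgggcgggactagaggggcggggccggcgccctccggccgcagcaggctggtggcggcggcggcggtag
The Abca1 match, GGGTTACTACCGGTCA on the opposite strand with 3 mismatches, lay at -67 to -52 from the start. Arl4c held a pair of overlapping matches on the opposite strand, CGGTCTCCCGGGGTCA at -65 to -50 and GGGTCAGGCGGGGTCT at -75 to -60, each with 3 mismatches. Such a match is common: 21.9% of all 32851 promoter windows of this length held one, as did 2 of the 11 windows found for 8 of the 10 genes. The table had no entry for Abcg1 or Npc1. A match describes the letters and does not show that a receptor binds there.

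Abca1 (chromosome 4, 53030787 to 53159895, minus strand) codes for the transporter that loads cholesterol and phospholipid onto lipid-poor apolipoprotein A-I. It had 1.00, 0.794 and 0.567 scaled FPKM in FLM_G, 7.99, 6.30 and 8.03 in FLM_M, and 4.22, 3.92 and 3.93 in BMM. The cultures formed 3 separate levels, with FLM_M on top and FLM_G, at about 146 to 241 reads per library, at the bottom. The fall of Abca1 in FLM_G had a size of -2.24 on the log2 scale (limma SE 0.11, adjusted p = 1.68e-07) against FLM_M and -1.50 (limma SE 0.11, adjusted p = 3.11e-06) against BMM. In FLM_M it rose by 0.74 (limma SE 0.11, adjusted p = 0.000668) against BMM.

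Abcg1 (chromosome 17, 31057675 to 31117988, plus strand) codes for the half-transporter that passes cholesterol to mature high-density lipoprotein. It had 135, 123 and 120 scaled FPKM in FLM_G, 3.87, 3.24 and 3.75 in FLM_M, and 4.35, 4.16 and 4.54 in BMM. All FLM_G libraries stood more than an order of magnitude above the rest, and the FLM_M libraries lay a little below the BMM libraries. The rise in FLM_G had a log2 change of 4.78 (limma SE 0.07, adjusted p = 7.10e-11) against FLM_M and 4.57 (limma SE 0.07, adjusted p = 1.10e-10) against BMM. The log2 change of -0.21 (limma SE 0.07, adjusted p = 0.0359) in FLM_M against BMM was small and not stable. It missed the threshold without scaling (limma adjusted p = 0.104) and without any 1 of BMM replicates 1, 2 or 3, FLM_M replicates 2 or 3, or FLM_G replicate 2 (limma adjusted p = 0.0517 to 0.114).

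Arl4c (chromosome 1, 88673125 to 88702221, minus strand) codes for a small GTP-binding protein that takes part in moving cholesterol to the plasma membrane. It had 1.38, 1.32 and 1.54 scaled FPKM in FLM_G, 29.8, 29.5 and 29.2 in FLM_M, and 25.7, 25.02 and 24.6 in BMM. FLM_M and BMM lay close together without overlap, and FLM_G lay far below both. Arl4c fell in FLM_G, with a log2 change of -3.66 (limma SE 0.05, adjusted p = 4.52e-11) against FLM_M and -3.44 (limma SE 0.05, adjusted p = 8.13e-11) against BMM. Its rise in FLM_M against BMM was 0.22 (limma SE 0.05, adjusted p = 0.00578).

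The split between both ABC transporters was also read as a ratio within each library. Abcg1 stood at 135, 154 and 212 times Abca1 in the FLM_G libraries, at 0.484, 0.515 and 0.467 times in the FLM_M libraries, and at 1.03, 1.06 and 1.16 times in the BMM libraries. BMM thus held like levels of both transporters, FLM_M more Abca1 and FLM_G nearly all Abcg1. The log2 ratio averaged 7.36 ± 0.34 in FLM_G, -1.03 ± 0.07 in FLM_M and 0.11 ± 0.09 in BMM (SD, n = 3 each). It differed by 8.39 between FLM_G and FLM_M, by 7.25 between FLM_G and BMM and by -1.15 between FLM_M and BMM, each without overlap and with a 2-sided exact permutation p = 0.1, the smallest possible.

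**Figure D2:**
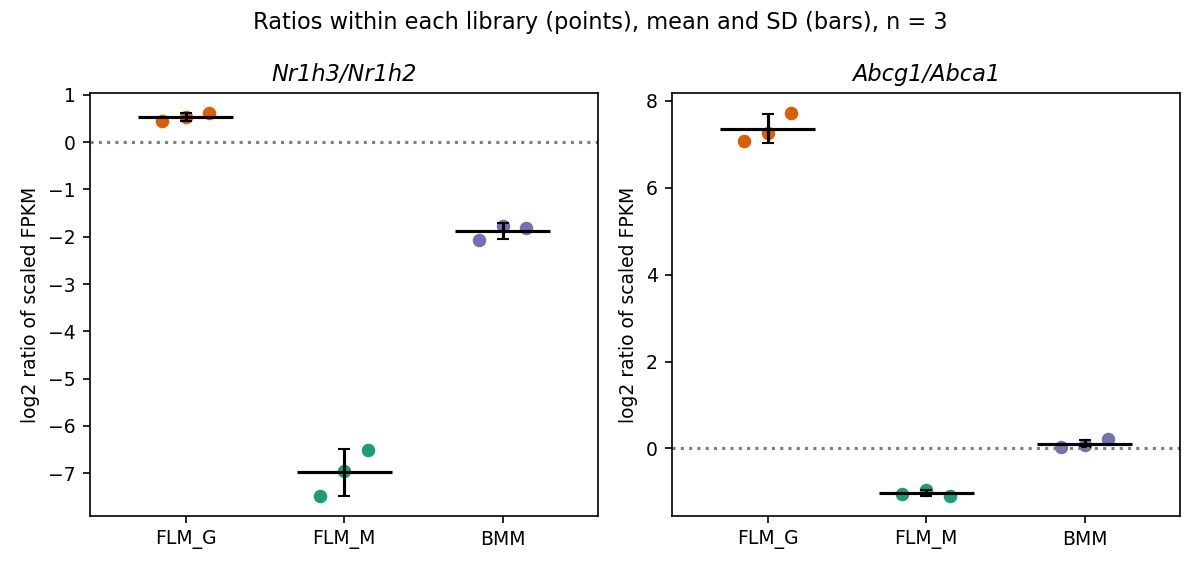
Log2 ratio of scaled FPKM within each library for Nr1h3 over Nr1h2 (left) and Abcg1 over Abca1 (right) in FLM_G, FLM_M and BMM, with points for libraries and bars for mean and SD (n = 3), and a dotted line at equal levels. Both ratios were highest in FLM_G and lowest in FLM_M, at means of 0.53 and -6.98 for the receptors and 7.36 and -1.03 for the transporters.

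The lipoprotein genes were all lower in FLM_G than in BMM, and Apoe and Pltp were lower in FLM_M too. Apoe (chromosome 7, 19696109 to 19699188, minus strand) codes for apolipoprotein E, which macrophages secrete as an acceptor of cellular cholesterol. It had 1.83, 2.28 and 2.32 scaled FPKM in FLM_G, 2.24, 2.09 and 2.92 in FLM_M, and 233, 140 and 137 in BMM. The fetal liver cultures overlapped each other at about 60 to 166 reads per library, and every BMM library was far above them, with BMM replicate 1 above both other BMM libraries. Apoe fell in FLM_G against BMM at -5.72 on the log2 scale (limma SE 0.20, adjusted p = 1.73e-08), and likewise in FLM_M, at -5.61 (limma SE 0.20, adjusted p = 6.36e-08). Without BMM replicate 1 these changes were -5.48 and -5.36. Between FLM_G and FLM_M the log2 change was -0.12 (limma SE 0.20, adjusted p = 0.619).

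The Apoe promoter (RefSeq, chr7:19699139-19699438, minus strand, the first of 3 annotated starts) is printed because this gene set BMM apart from both fetal liver cultures, and that of Apoc2 (chr7:19677892-19678191, minus strand) because the gene lies beside Apoe yet behaved differently. Capitals mark each exact AGGTCA, the half-site of the repeat searched above, of which the Apoc2 window held 2 on the gene's own strand, at -115 to -110 and at 43 to 48 after the start.
Apoe: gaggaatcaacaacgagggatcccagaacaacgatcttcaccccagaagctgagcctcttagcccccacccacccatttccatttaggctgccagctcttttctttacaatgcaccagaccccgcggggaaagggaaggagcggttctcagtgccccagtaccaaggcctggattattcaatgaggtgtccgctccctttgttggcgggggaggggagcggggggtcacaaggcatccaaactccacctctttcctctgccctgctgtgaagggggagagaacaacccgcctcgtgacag
Apoc2: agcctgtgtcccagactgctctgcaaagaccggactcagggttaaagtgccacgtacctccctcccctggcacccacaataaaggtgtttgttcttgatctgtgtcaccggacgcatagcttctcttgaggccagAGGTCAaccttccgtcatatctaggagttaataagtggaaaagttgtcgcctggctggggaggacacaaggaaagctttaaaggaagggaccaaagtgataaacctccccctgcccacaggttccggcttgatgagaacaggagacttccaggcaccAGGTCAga
The half-site, searched on both strands, was present in 16.3% of all 32851 windows and in 1 of the 11 windows of these genes. Neither motif was in the Apoe windows, which says only that these letters are not there.

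Apoc2 (chromosome 7, 19671579 to 19677941, minus strand) codes for apolipoprotein C-II, the cofactor of lipoprotein lipase. It had 0.574, 0.901 and 1.28 scaled FPKM in FLM_G, 6.09, 8.16 and 6.37 in FLM_M, and 5.03, 4.76 and 5.34 in BMM. FLM_G lay below both other cultures at about 10 to 23 reads per library, and FLM_M lay above BMM without overlap. Apoc2 fell in FLM_G, with a log2 change of -2.04 (limma SE 0.14, adjusted p = 1.88e-06) against FLM_M and -1.67 (limma SE 0.14, adjusted p = 8.57e-06) against BMM. In FLM_M against BMM the log2 change of 0.37 (SE 0.14) missed the threshold at a limma adjusted p = 0.0631, and passed with only the 6 libraries compared (0.0294), without scaling (0.0252), with the stricter filter (0.0494) and without FLM_G replicate 1 (0.0312) or FLM_G replicate 3 (0.0329). Reads of Apoc2 are uncertain in part, because the annotated transcript Gm44805 (19671584 to 19681423) overlaps the gene and was not a row of the table.

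Pltp (chromosome 2, 164839518 to 164857711, minus strand) codes for phospholipid transfer protein, which moves phospholipid between lipoproteins and remodels high-density lipoprotein. It had 1.10, 1.56 and 1.50 scaled FPKM in FLM_G, 5.94, 6.90 and 6.64 in FLM_M, and 27.3, 29.6 and 29.2 in BMM. The cultures formed 3 steps without overlap. Pltp fell in FLM_G with a log2 change of -1.66 (limma SE 0.09, adjusted p = 2.70e-07) against FLM_M and -3.64 (limma SE 0.09, adjusted p = 1.68e-09) against BMM. In FLM_M against BMM its log2 change was -1.99 (limma SE 0.09, adjusted p = 2.43e-07).

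The deposited count table went the other way for Pltp, and its values are given here because Pltp shares 495 exon bases with Ctsa on the opposite strand. Pltp had counts of 1838, 1754 and 1551 in FLM_G, 1368, 1980 and 1748 in FLM_M, and 909, 937 and 1095 in BMM. Ctsa (chromosome 2, 164832873 to 164841032, plus strand), which codes for the lysosomal protease cathepsin A, had 214, 229 and 228 scaled FPKM in FLM_G, 185, 215 and 190 in FLM_M, and 131, 131 and 133 in BMM. Its counts ran the other way, at 328, 335 and 198 in FLM_G, 629, 725 and 636 in FLM_M, and 1228, 1386 and 1598 in BMM. Counts under the name of either gene thus followed the FPKM order of its partner, with FLM_G and FLM_M overlapping in the Pltp counts and in the Ctsa FPKM. For Abca1 the count table held 0 to 28 reads per library, where the FPKM stood for about 146 to 3329. Levels were therefore read from the FPKM, and the counts served as an alternative.

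**Figure D3:**
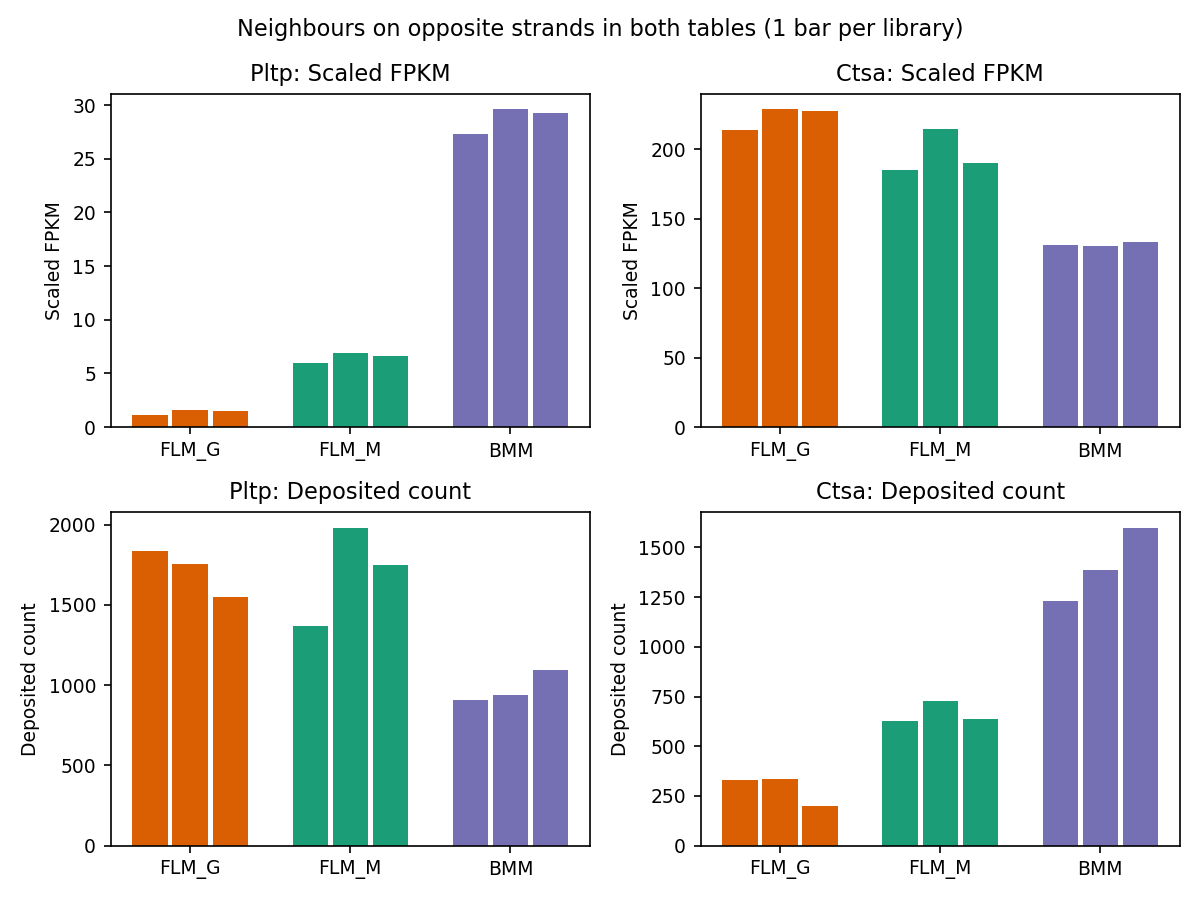
Scaled FPKM (top) and deposited counts (bottom) of the overlapping neighbours Pltp (left) and Ctsa (right), 1 bar per library in FLM_G, FLM_M and BMM. Pltp FPKM was lowest in FLM_G and highest in BMM while its counts were lowest in BMM, and Ctsa showed the mirror image.

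The genes beside Apoe on chromosome 7, all on the same strand, did not move together in every comparison. Of the 4 tested here, 1 passed as higher and 2 as lower in FLM_G against BMM (33.8% and 34.1% of all tested genes). In FLM_M against BMM 2 passed as higher and 0 as lower (22.7% and 21.9%). All 4 passed as lower in FLM_G against FLM_M (35.1%), with log2 changes of -1.15 for Nectin2, -0.65 for Clptm1 and -0.52 for Relb (limma adjusted p = 3.63e-07, 1.38e-05 and 8.37e-05). Tomm40, a mitochondrial import pore 2.1 kb from Apoe, had 13.8 ± 1.48 scaled FPKM in FLM_G, 16.5 ± 0.831 in FLM_M and 15.6 ± 1.25 in BMM (SD, n = 3 each). It passed only in FLM_G against FLM_M, at -0.24 (limma SE 0.09, adjusted p = 0.0355), and not there without FLM_G replicate 1 (0.146), FLM_M replicate 2 (0.0898) or FLM_M replicate 3 (0.0522). Nectin2, an adhesion molecule 17.5 kb away, had 1.27 ± 0.153 in FLM_G, 4.03 ± 0.194 in FLM_M and 2.46 ± 0.0833 in BMM. It rose in FLM_M against BMM by 0.54 (limma SE 0.06, adjusted p = 0.000163) and fell by 0.61 (limma SE 0.06, adjusted p = 3.09e-05) in FLM_G against BMM. Clptm1, 31.1 kb away, had 29.4 ± 1.87 in FLM_G, 46.6 ± 2.15 in FLM_M and 46.2 ± 1.87 in BMM, and fell by 0.64 (limma SE 0.06, adjusted p = 1.78e-05) in FLM_G against BMM. Relb, a subunit of NF-κB 66.7 kb away, had 5.38 ± 0.292 in FLM_G, 8.16 ± 0.113 in FLM_M and 2.67 ± 0.235 in BMM, and rose by 1.32 (limma SE 0.06, adjusted p = 4.42e-07) in FLM_M and by 0.80 (limma SE 0.06, adjusted p = 5.30e-06) in FLM_G against BMM. The apolipoprotein genes Apoc1, 3.4 kb from Apoe, and Apoc4, 14.6 kb away, were at or near 0 in every library, the highest value being 0.217 for Apoc1 in BMM replicate 1.

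The lysosomal transporters were present at like levels in all 3 cultures. Npc1 codes for the membrane protein that exports cholesterol from the lysosome. It had 27.2, 26.1 and 26.4 scaled FPKM in FLM_G, 26.2, 24.2 and 23.7 in FLM_M, and 29.9, 31.3 and 29.3 in BMM. BMM was highest without overlap, and FLM_G and FLM_M overlapped. Npc1 fell in FLM_M against BMM with a log2 change of -0.28 (limma SE 0.05, adjusted p = 0.00216), and in FLM_G against BMM with one of -0.18 (limma SE 0.05, adjusted p = 0.0135), a call lost without FLM_G replicate 2 (0.0734) or FLM_G replicate 3 (0.0561). In FLM_G against FLM_M it did not pass, at 0.10 (limma adjusted p = 0.103), but it passed without FLM_M replicate 1 at 0.13 (0.0410), and without scaling it passed as lower, at -0.37. The genes Rmc1 and Gm15956 overlap Npc1 on the opposite strand.

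Npc2 (chromosome 12, 84754562 to 84773152, minus strand) codes for the soluble protein that hands cholesterol to NPC1 inside the lysosome. It had 199.3, 199.2 and 201 scaled FPKM in FLM_G, 169, 162 and 173 in FLM_M, and 187, 177 and 182 in BMM. The cultures did not overlap, with FLM_G on top and FLM_M at the bottom. Npc2 rose in FLM_G against FLM_M by 0.25 (limma SE 0.04, adjusted p = 0.000793), but was lower there without scaling, at -0.24. In FLM_G against BMM the log2 change was 0.14 (limma SE 0.04, adjusted p = 0.0212), a call that was lost under upper-quartile scaling (0.178), without the filter (0.132) and without BMM replicate 2 (0.114) or BMM replicate 3 (0.0739), and that turned to -0.29 without scaling. In FLM_M against BMM the log2 change of -0.11 (SE 0.04) had a limma adjusted p = 0.0636, and 0.0371 under upper-quartile scaling.

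Counted over the 10 genes, the cultures differed in direction from gene to gene. In FLM_G against FLM_M, 3 genes passed as higher (Nr1h3, Abcg1 and Npc2) and 4 as lower (Abca1, Arl4c, Apoc2 and Pltp), beside 70.6% of all tested genes passing in either direction, 35.5% as higher and 35.1% as lower. In FLM_G against BMM, 3 passed as higher (Nr1h3, Abcg1 and Npc2) and 6 as lower (Abca1, Arl4c, Apoe, Apoc2, Pltp and Npc1), beside 68.0% of all tested genes, 33.8% as higher and 34.1% as lower. In FLM_M against BMM, 2 passed as higher (Abca1 and Arl4c) and 5 as lower (Nr1h3, Abcg1, Apoe, Pltp and Npc1), beside 44.6% of all tested genes, 22.7% as higher and 21.9% as lower. The 7 of 10 genes passing in FLM_G against FLM_M is near the share of all genes. Calls of at least 2-fold were made for 6 of the 10 genes in FLM_G against FLM_M, beside 21.4% of all tested genes. They were made for 7 in FLM_G against BMM, beside 18.8%, and for 3 in FLM_M against BMM, beside 7.03%. The libraries did not overlap for 8 genes in FLM_G against FLM_M (72.4% of all tested genes), 9 in FLM_G against BMM (73.2%) and 9 in FLM_M against BMM (57.3%). The median log2 change of the 10 genes was -0.01 in FLM_G against FLM_M, -0.84 in FLM_G against BMM and -0.16 in FLM_M against BMM, beside 0.00 over all tested genes in each comparison. Comparisons that share a culture are not independent of each other. Without scaling, the median gene was 0.39 lower in FLM_G than in FLM_M and 0.34 lower than in BMM, and the calls over all genes divided into 2218 higher and 7075 lower against FLM_M (4246 and 4195 with scaling) and 2081 higher and 6775 lower against BMM (4044 and 4081 with scaling). In FLM_M against BMM they divided into 3323 higher and 2240 lower without scaling, and 2716 and 2613 with it.

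**Figure D4:**
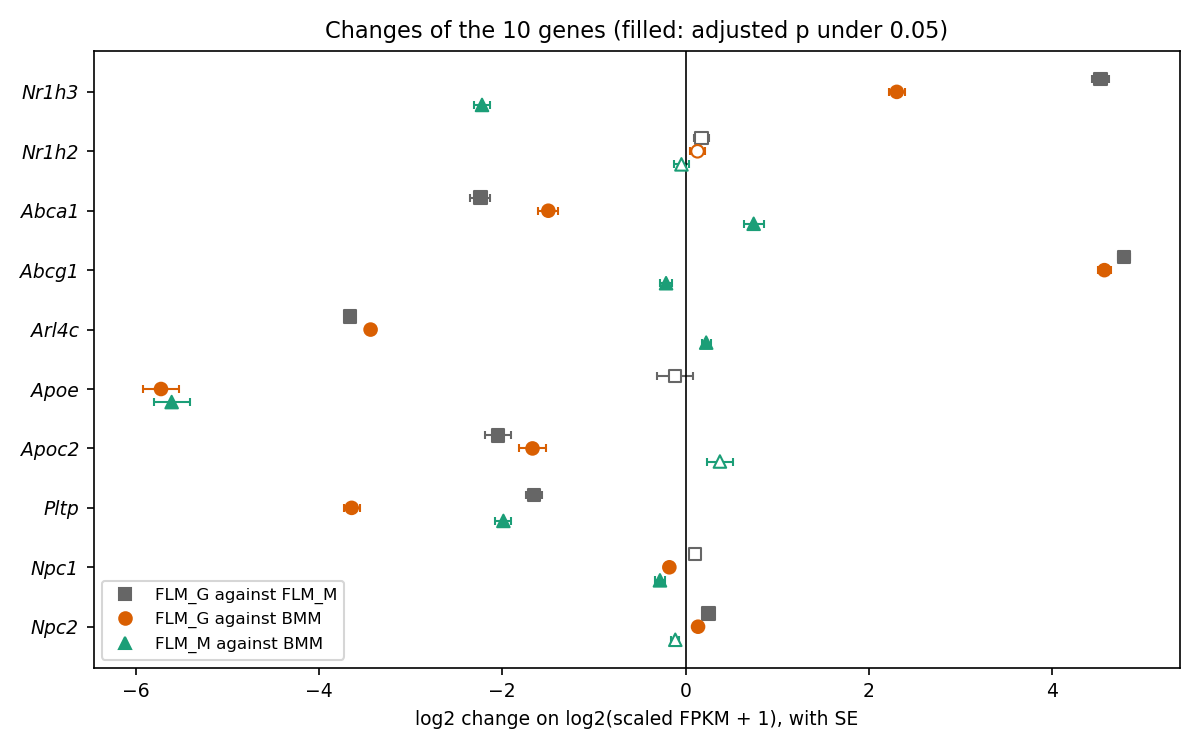
Log2 change with SE of each of the 10 genes, on log2(scaled FPKM + 1), in FLM_G against FLM_M (squares), FLM_G against BMM (circles) and FLM_M against BMM (triangles), filled where the limma adjusted p was under 0.05. Abcg1 and Nr1h3 lay far to the right in both comparisons of FLM_G, Arl4c, Abca1, Apoc2 and Pltp to the left, and Apoe far to the left in both comparisons with BMM only.

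The rank of the 10 genes by level, which FPKM allows, changed between cultures. In FLM_G the order was Npc2, Abcg1, Npc1, Nr1h3, Nr1h2, Apoe, Arl4c, Pltp, Apoc2 and Abca1, and neighbours overlapped between Npc1 and Nr1h3 and from Arl4c to Abca1. In FLM_M it was Npc2, Arl4c, Npc1, Nr1h2, Abca1, Apoc2, Pltp, Abcg1, Apoe and Nr1h3, with overlap from Abca1 to Pltp. In BMM it was Npc2, Apoe, Npc1, Pltp, Arl4c, Nr1h2, Apoc2, Abcg1, Nr1h3 and Abca1, with overlap between Npc2 and Apoe, between Npc1 and Pltp, and from Abcg1 to Abca1. Npc2 thus led in each culture by its mean, although in BMM replicate 1 Apoe (233) stood above Npc2 (187). Among all tested genes, Abcg1 stood at percentile 96.1 of level in FLM_G, 32.5 in FLM_M and 37.8 in BMM, and Apoe at 20.9 in FLM_G, 22.8 in FLM_M and 97.8 in BMM.

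Beyond the 10 genes, 42 others were listed, 6 of them only because they lie beside Apoe and the rest as genes of the pathway. Of the 42, 37 could be tested, among them 4 of those beside Apoe. In FLM_G against FLM_M 21 rose and 13 fell (median log2 change 0.52), in FLM_G against BMM 17 rose and 10 fell (median 0.17), and in FLM_M against BMM 9 rose and 21 fell (median -0.24). These shares of 34, 27 and 30 in 37 stand beside the 70.6%, 68.0% and 44.6% of all tested genes given above. The 4 tested genes beside Apoe are all among the 13 falls in FLM_G against FLM_M.

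Among the 6 receptor partners, 4 rose and 1 fell in FLM_G against FLM_M, 3 rose and 2 fell in FLM_G against BMM, and 1 rose and 3 fell in FLM_M against BMM. The share of all tested genes passing in either direction was 70.6%, 68.0% and 44.6% in that order. Rxra codes for RXRα, the retinoid receptor with which LXR binds DNA, and had 42.8 ± 2.89 scaled FPKM in FLM_G, 17.0 ± 1.45 in FLM_M and 11.9 ± 0.127 in BMM (SD, n = 3 each). It rose in FLM_G by 1.28 (limma SE 0.07, adjusted p = 3.52e-07) against FLM_M and by 1.76 (limma SE 0.07, adjusted p = 4.60e-08) against BMM, and in FLM_M by 0.48 (limma SE 0.07, adjusted p = 0.000618) against BMM. Ncoa1, a coactivator, rose in FLM_G by 0.84 (limma adjusted p = 1.35e-05) against FLM_M and by 0.51 (limma adjusted p = 0.000428) against BMM, the second of which was lost without scaling (0.145). The corepressor gene Ncor1 fell in FLM_G with log2 changes of -0.59 (limma adjusted p = 0.000368) against FLM_M and -0.47 (limma adjusted p = 0.00155) against BMM.

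Of the 9 other genes known as LXR targets, 6 rose and 2 fell in FLM_G against FLM_M and likewise against BMM, while in FLM_M against BMM 2 rose and 7 fell. These counts include Scd1, which reached 1 FPKM in FLM_G alone, and without it 5 rose and 2 fell in both comparisons of FLM_G, and 2 rose and 6 fell in FLM_M against BMM. Over all tested genes 70.6% passed in either direction in FLM_G against FLM_M, 68.0% in FLM_G against BMM and 44.6% in FLM_M against BMM. Scd2, a fatty acid desaturase, had 33.8 ± 1.56 scaled FPKM in FLM_G, 0.0129 ± 0.00799 in FLM_M and 7.92 ± 0.149 in BMM (SD, n = 3 each). It rose in FLM_G against BMM by 1.97 (limma SE 0.05, adjusted p = 3.03e-09) and fell by 3.14 (limma SE 0.05, adjusted p = 8.99e-10) in FLM_M against BMM, a size that the added constant sets (-6.15 with 0.1 in place of 1). Scd1, its close relative, had 15.1 ± 0.825 in FLM_G and 0.147 ± 0.0362 in BMM and was listed at 0 in FLM_M. Lpl, lipoprotein lipase, for which apolipoprotein C-II is the cofactor, had 1233 ± 112 in FLM_G, 155 ± 10.8 in FLM_M and 279 ± 8.92 in BMM. It rose in FLM_G by 2.98 (limma SE 0.08, adjusted p = 2.40e-09) against FLM_M and by 2.14 (limma SE 0.08, adjusted p = 2.45e-08) against BMM, and fell by 0.85 (limma SE 0.08, adjusted p = 3.20e-05) in FLM_M against BMM. Mertk, a receptor for the uptake of dying cells, had 64.0 ± 1.60 in FLM_G, 10.5 ± 0.717 in FLM_M and 9.11 ± 0.395 in BMM, and rose in FLM_G by 2.50 (limma adjusted p = 1.09e-09) against FLM_M and by 2.69 (limma adjusted p = 8.61e-10) against BMM. Its change of 0.19 in FLM_M against BMM (limma adjusted p = 0.0296) was lost without the filter (0.0555), with only the 6 libraries compared (0.0618) and in 5 of the 9 fits without 1 library (0.0504 to 0.119). Lpcat3, a phospholipid acyltransferase, rose in FLM_G by 1.48 (limma adjusted p = 1.08e-08) against FLM_M and by 1.31 (limma adjusted p = 2.71e-08) against BMM.

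The targets that fell in FLM_G were Mylip and Cd5l. Mylip, a ubiquitin ligase gene, had 3.70 ± 0.256 scaled FPKM in FLM_G, 5.85 ± 0.547 in FLM_M and 8.92 ± 0.303 in BMM, with log2 changes of -0.54 (limma SE 0.07, adjusted p = 0.000162) in FLM_G against FLM_M and -1.08 (limma SE 0.07, adjusted p = 1.76e-06) against BMM. Cd5l, a secreted macrophage protein, had 0, 0 and 0.0390 in FLM_G, against 6.39 ± 0.518 in FLM_M and 9.96 ± 0.439 in BMM. Smpdl3a, a phosphodiesterase, stood at 132 ± 1.72 in FLM_G, 143 ± 6.76 in FLM_M and 123 ± 4.67 in BMM, and rose in FLM_M against BMM by 0.21 (limma adjusted p = 0.00735).

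Genes of ligand supply differed most in FLM_M. Ch25h, which makes the LXR ligand 25-hydroxycholesterol and is known as an interferon-stimulated gene, had 5.06 ± 0.376 scaled FPKM in FLM_G, 58.0 ± 5.20 in FLM_M and 11.3 ± 0.287 in BMM (SD, n = 3 each). It fell in FLM_G with log2 changes of -3.28 (limma SE 0.07, adjusted p = 8.04e-10) against FLM_M and -1.02 (limma SE 0.07, adjusted p = 2.52e-06) against BMM, and rose by 2.26 (limma SE 0.07, adjusted p = 3.76e-08) in FLM_M against BMM. Cyp27a1, the sterol 27-hydroxylase, had 3.50 ± 0.211 in FLM_G, 6.81 ± 0.253 in FLM_M and 3.02 ± 0.487 in BMM, and rose in FLM_M against BMM by 0.96 (limma SE 0.09, adjusted p = 3.11e-05). Cyp7b1, the oxysterol 7α-hydroxylase, was listed at 0 throughout.

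Of 17 listed genes of sterol uptake, storage and lysosomal transport, 15 could be tested, and 10 rose and 4 fell in FLM_G against FLM_M, 6 rose and 3 fell in FLM_G against BMM, and 2 rose and 10 fell in FLM_M against BMM. Beside them, 70.6%, 68.0% and 44.6% of all tested genes passed in either direction, in the same order. Lipa, the lysosomal acid lipase that frees the cholesterol which NPC2 and NPC1 pass on, had 731 ± 36.7 scaled FPKM in FLM_G, 217 ± 14.5 in FLM_M and 419 ± 6.19 in BMM (SD, n = 3 each). It rose in FLM_G by 1.74 (limma SE 0.06, adjusted p = 1.83e-08) against FLM_M and by 0.80 (limma SE 0.06, adjusted p = 4.32e-06) against BMM, and fell by 0.95 (limma SE 0.06, adjusted p = 3.40e-06) in FLM_M against BMM. Scarb1, the high-density lipoprotein receptor, had 20.1 ± 0.681 in FLM_G, 4.57 ± 0.344 in FLM_M and 9.62 ± 0.161 in BMM, and rose in FLM_G by 1.93 (limma adjusted p = 5.66e-09) against FLM_M and by 0.99 (limma adjusted p = 5.56e-07) against BMM. Lrp1, a receptor for lipoproteins that carry apolipoprotein E, had 64.5 ± 2.31 in FLM_G, 61.0 ± 8.89 in FLM_M and 118 ± 1.85 in BMM, and fell in both fetal liver cultures, with log2 changes against BMM of -0.86 (limma adjusted p = 3.09e-05) in FLM_G and -0.95 (limma adjusted p = 3.72e-05) in FLM_M. Gramd1b, which carries sterol from the plasma membrane to the endoplasmic reticulum, had 1.96 ± 0.483 in FLM_G, 9.46 ± 1.39 in FLM_M and 12.6 ± 0.540 in BMM, with log2 changes in FLM_G of -1.83 (limma adjusted p = 2.64e-06) against FLM_M and -2.21 (limma adjusted p = 7.98e-07) against BMM. Stard3, a late endosomal sterol carrier, had 14.8 ± 0.0808 in FLM_G, 23.3 ± 0.213 in FLM_M and 15.4 ± 0.336 in BMM, and rose by 0.57 (limma adjusted p = 4.78e-06) in FLM_M against BMM.

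**Figure D5:**
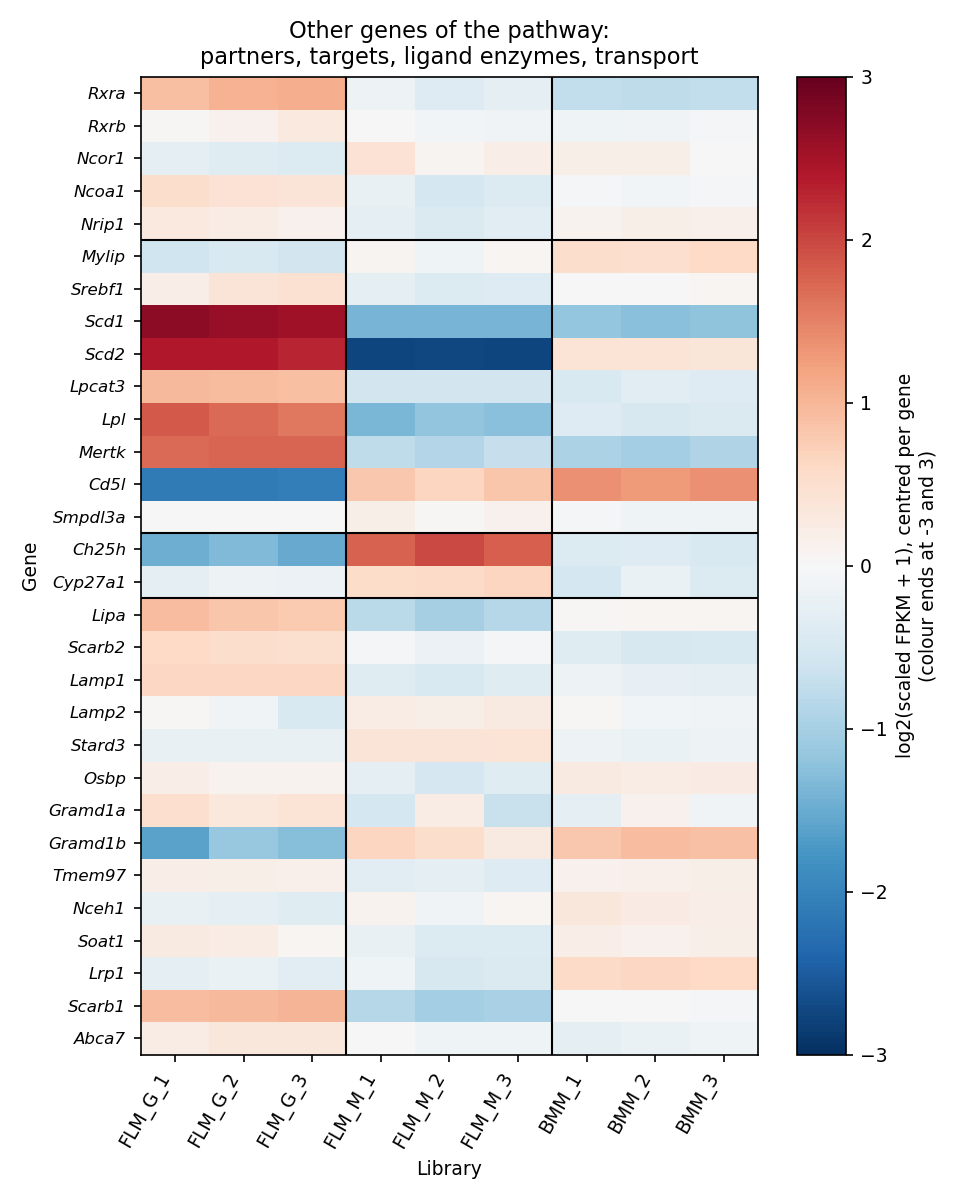
Heat map of log2(scaled FPKM + 1), centred per gene over the 9 libraries, for tested genes of the lists of partners, targets, ligand enzymes and transport (rows, lists divided by lines) in each library of FLM_G, FLM_M and BMM (columns). Scd1, Scd2, Lpl and Mertk were highest in FLM_G, Ch25h in FLM_M, and Cd5l, Gramd1b and Mylip lowest in FLM_G.

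The tested genes whose profile over the 9 libraries lay nearest to a member were found by the root mean square difference of centred log2 values. Nr1h3 was nearest to Mmp8, a collagenase (0.18), the stress cytokine gene Gdf15 (0.19) and Rps4l (0.20), and Mmp8 averaged 18.7 scaled FPKM in FLM_G, 0.0316 in FLM_M and 2.94 in BMM. Abca1 was nearest to Slfn9 (0.09), Mfsd6 (0.11) and 1190002N15Rik (0.11), of which Slfn9 averaged 5.25 in FLM_G, 29.7 in FLM_M and 15.2 in BMM. Pltp was nearest to Arhgef10l (0.17), Tmem37 (0.21) and Adssl1 (0.25). For Apoe the nearest genes, Itgb7 (0.82), Adgre5 (0.89) and Nptx1 (0.91), were much farther off, and Itgb7, an integrin chain, averaged 0.158 in FLM_G, 0.0435 in FLM_M and 16.6 in BMM.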

How the data were processed

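RNA of 9 libraries was sequenced for 101 cycles from 1 end after stranded poly(A) preparation, per the labels. HISAT2, StringTie, DESeq2, cutadapt, FastQC and bcl2fastq are named as tools, and GRCm38 and mm10 as builds, per the submitters' processing notes, while their versions and which tool made which table are not given in the sources used here. The authors deposited FPKM per gene and library, and a separate table of whole-number counts per gene, both over 46078 genes. The counts summed to 782400 to 1170813 per library and were not the main measure, because those of the overlapping genes Pltp and Ctsa each followed the FPKM order of the gene on the opposite strand.

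FPKM were divided by unweighted TMM factors (edgeR 4.0.16, 0.801 to 1.14) over the 11952 genes with at least 1 FPKM in at least 3 libraries. Limma 3.58.1 (trend, R 4.3.3) was fitted to log2(scaled FPKM + 1) with a mean per group over 9 libraries (6 residual degrees of freedom) and Benjamini-Hochberg adjustment over all tested genes. A run on data simulated with the fit's own spread checked the code, and not how well the model suits these libraries. Ratios within a library were compared by 2-sided exact permutation tests (scipy 1.17.1). Approximate reads came from the smallest FPKM steps and the longest annotated transcript. Gene positions are those of GENCODE M21, promoters those of RefSeq. Alternatives were RLE, upper-quartile and no scaling, no filter, a filter of 5 FPKM, an added constant of 0.1, the 6 libraries compared, a replicate block, edgeR and DESeq2 1.42.0 on the counts, and each library left out.

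The 10 genes and the lists were chosen with earlier results of these data known. The lists hold genes by their described role, except for the genes beside Apoe, which were listed by position. Named from each list were, per comparison, up to 2 called genes with the largest rise and 2 with the largest fall and a mean of at least 5 scaled FPKM in the higher culture, all genes beside Apoe, and for 4 members the 3 genes of most similar profile. Mertk is in both the target and the macrophage marker list. Scd2, Lipa, Lpl, Lpcat3, Nectin2, Tomm40 and Mertk were also described in comparisons outside that rule, chosen after their values were seen, as were Ctsa, Cyp7b1 and the sex genes. Results of a few listed genes are not reported here.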

Additional observations from a re-analysis of the deposited data

How the results depend on the processing

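Over the alternatives that kept the FPKM, the log2 changes of the 10 genes kept their direction and their side of the threshold in 227 of 240 cases, and with each library left out in turn in 253 of 270. The exceptions were Nr1h2, Npc1 and Npc2, Abcg1 and Apoc2 in FLM_M against BMM, and among the other named genes Ncoa1, Mertk and Tomm40, with the values given beside each. Without scaling, Nr1h2 reversed in FLM_G against FLM_M (-0.28), FLM_G against BMM (-0.27) and FLM_M against BMM (0.014), Npc2 in FLM_G against FLM_M (-0.24) and BMM (-0.29), and Npc1 in FLM_G against FLM_M (-0.37), and 7 of the 10 genes then passed as lower in FLM_G against FLM_M, where 4 did with scaling. Without BMM replicate 1, Nr1h2 in FLM_M against BMM reversed to 0.034, and over the 9 fits without 1 library it ranged from -0.104 to 0.034. An added constant of 0.1 also moved changes of genes low in a culture by over 1.5 times without ending their calls. No scaling did so for other changes, and not only for low genes or small changes. Without scaling, Rxra in FLM_G against FLM_M went from 1.28 to 0.81. In FLM_G against BMM, Scarb1 went from 0.99 to 0.60, Lipa from 0.80 to 0.38 and Clptm1 from -0.64 to -1.05. The cause was not tested.

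The count table gave fewer calls. It yielded 51 log2 changes of the 10 genes, of which 20 kept their direction and their side of the threshold. A further 20 reversed, 9 lost their call and 2 gained one. By DESeq2 the lost calls included Nr1h3 in FLM_M against BMM (-0.64, adjusted p = 0.786). The deposited Nr1h3 counts were 1, 4 and 6 in FLM_M and 6, 1 and 4 in BMM, too few for this test to decide. By FPKM, Nr1h3 stood for about 7 to 13 reads in FLM_M and 287 to 311 in BMM. The lost calls also included Abca1 in FLM_M against BMM (1.63, DESeq2 adjusted p = 0.0950) and in FLM_G against BMM (-2.52, DESeq2 adjusted p = 0.137). In FLM_G against FLM_M edgeR called 2855 genes and DESeq2 2628, against 8441 from the FPKM, in FLM_G against BMM 2458 and 2195 against 8125, and in FLM_M against BMM 1300 and 838 against 5329. Of the 10 genes, edgeR called 3 and DESeq2 4 as higher and 2 and 2 as lower in FLM_G against FLM_M, 3 and 4 as higher and 3 and 2 as lower in FLM_G against BMM, and 1 and 1 as lower and 1 and 0 as higher in FLM_M against BMM. Of the 42 other listed genes, 12 and 12, 13 and 10, and 6 and 5 were called in these comparisons, against 34, 27 and 30. Reversed log2 changes, edgeR's before DESeq2's, were in FLM_G against FLM_M those of Nr1h2 (-0.54 and -0.52), Apoe (0.29 and 0.34), Pltp (0.94 and 0.99), Npc2 (-0.15 and -0.14), Ncor1 (0.064 and 0.10) and, by DESeq2, Relb (0.074). In FLM_G against BMM they were those of Pltp (1.21 and 1.16) and Npc1 (0.91 and 0.88), and in FLM_M against BMM those of Nr1h2 (0.81 and 0.73), Abcg1 (0.32 and 0.26), Pltp (0.26 and 0.18) and Npc2 (0.38 and 0.31). Among the reversed changes of the 10 genes, those of Pltp in FLM_G against FLM_M (adjusted p = 0.00462 by edgeR and 0.00133 by DESeq2) and against BMM (0.000360 and 0.000114) and of Npc1 in FLM_G against BMM (0.00469 and 0.00772) passed as higher.

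With each library left out, 7606 to 8242 genes were called in FLM_G against FLM_M, 7239 to 8063 in FLM_G against BMM and 4192 to 5509 in FLM_M against BMM. Of the 10 genes, 3 to 4 passed as higher and 4 as lower in FLM_G against FLM_M, 2 to 4 and 5 to 6 in FLM_G against BMM, and 2 to 3 and 4 to 5 in FLM_M against BMM. Of the 42 other listed genes, 31 to 34, 26 to 28 and 23 to 30 passed in these comparisons. Same-numbered libraries of different cultures deviated together at correlations of -0.08 to 0.09 over 9 pairs, and differently numbered ones at -0.10 to 0.07. Such values cannot show whether same-numbered libraries shared a preparation. With the replicate number as a block, 8386, 8018 and 5140 genes were called in the same order, and the counts of the 10 genes were those without the block. Depth limits Nr1h3 in FLM_M, Apoc2 in FLM_G, each at under 25 reads, and 3 libraries per culture cannot give a permutation p under 0.1.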
